A study of Homo sapiens with 3 samples.

Results

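The dual-specificity MAP kinase phosphatases (DUSP) are enzymes that remove phosphate from both the threonine and the tyrosine of the activation loop of MAP kinases and thereby switch these kinases off. MAP kinases are the last step of cascades in which RAS and RAF, or stress-responsive kinases, act through MAP kinase kinases, and their 3 main branches are ERK, JNK and p38. Many DUSP genes are themselves transcribed in response to MAP kinase activity, so that the phosphatases form negative feedback loops. Signaling through ERK is a known feature of Hodgkin's lymphoma (HL) cells. The 10 genes of this family, DUSP1, DUSP2, DUSP4 to DUSP10 and DUSP16, were analyzed in DNA microarray data from 3 cell lines of HL, named HDLM-2, L-428 and L-540. They were chosen by family membership with their signals in these 3 lines already known, and the signals are therefore given as a description and without a test. Each of the 10 genes was represented by 1 transcript cluster, a feature that summarises the exons of a gene, and none of these clusters was shared with another gene. The table holds 22011 transcript clusters in all, and 14232 genes have a cluster of their own.

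Total RNA of each line was hybridized to a single Human Exon 1.0 ST array. HDLM-2 and L-428 carry a note in their sample description that the RNA was taken after vorinostat, an inhibitor of histone deacetylases, and L-540 carries no such note. The methods of the study describe no treatment for these arrays, so the line and a possible treatment cannot be told apart in any comparison of L-540 with the other lines. All are established lines in permanent culture. As background, HDLM-2 and L-540 carry rearranged T cell receptor genes, whereas L-428 is of B cell origin. With 1 array per line there is no replicate error, and no difference between lines could be tested. Their number limits the precision of the values.

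Of 12 measured genes typical of HL cells, TNFRSF8, which encodes the marker CD30, had a signal intensity of 158 in HDLM-2 cells, 145 in L-428 cells and 158 in L-540 cells. The list had 6 members above 100 in HDLM-2, compared with 7 in L-428 and 4 in L-540. ID2, an inhibitor of B lineage factors, had its highest mean, with 2840 in HDLM-2 cells, 257 in L-428 cells and 1936 in L-540 cells, and the others above 100 that ranged over 4-fold or more were the chemokine genes CCL17 and CCL22 (highest in HDLM-2) and FSCN1, TRAF1 and GATA3 (highest in L-428). The 6 measured B cell markers reached at most 8.83, the 6 T cell markers 28.9 (CD7), the 6 myeloid markers 36.1 (CD68) and the 3 red cell and platelet markers 4.19, in any line. The array medians were 7.16 in HDLM-2, compared with 9.18 in L-428 and 7.41 in L-540. Signals above 100, the threshold of expression in the study, were reached by 6.28% of all clusters in HDLM-2, compared with 10.2% in L-428 and 7.17% in L-540. The 1128 genes above 100 in at least 1 line had a median log2 difference of 0.77 when L-540 was subtracted from L-428. For HDLM-2 it was -0.08 relative to L-540 and -1.002 relative to L-428. Over all clusters the median difference was 0 in each pair.

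DUSP5 was the member with signals above the threshold, in HDLM-2 and L-540 but not in L-428. DUSP6 had the opposite pattern, with a signal just under the threshold in L-428 and signals below the array medians in the other lines. DUSP7 was lowest in HDLM-2, and DUSP8 was higher there. The other 6 members differed by less than 1.5-fold between any lines as deposited. After quantile normalization of the 3 arrays the log2 difference of HDLM-2 minus L-428 was 0.85 for both DUSP1 and DUSP16. It was 0.59 for DUSP9, 0.53 for DUSP2, 0.44 for DUSP10 and 0.30 for DUSP4. Of the 10 members, 1 was above 100 in HDLM-2 cells, 0 in L-428 cells and 1 in L-540 cells, and this was DUSP5 in both cases. The remaining 9 stayed below 100 in every line, and 6 of them stayed below 20. The array median was exceeded by 9 members in HDLM-2, compared with 8 in L-428 and 8 in L-540. The median signal of the members was 15.4 in HDLM-2, compared with 14.4 in L-428 and 13.1 in L-540.

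**Figure D1:**
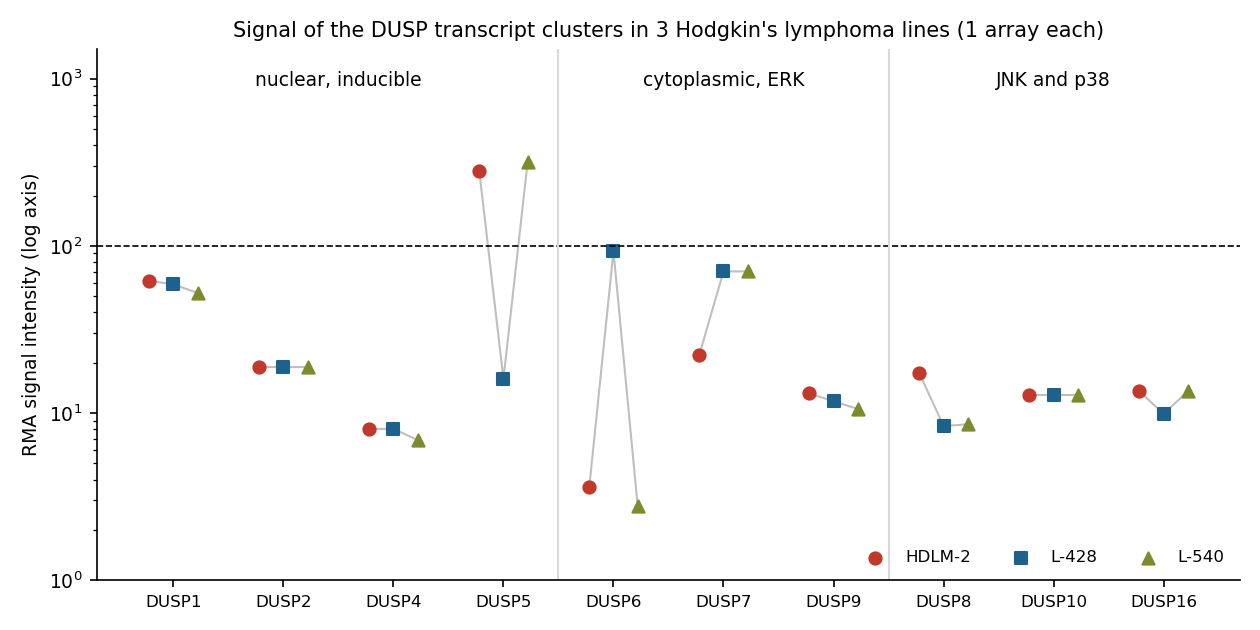
RMA signal intensity (log axis) of the 10 DUSP clusters in HDLM-2 (circles), L-428 (squares) and L-540 (triangles), 1 array each, in 3 groups by location and substrate, with gray lines joining the 3 values of a gene and a dashed line at 100. DUSP5 lies at 282, 16.0 and 317, DUSP6 at 3.60, 92.7 and 2.79, and DUSP7 at 22.3, 70.3 and 70.3 in the order of the symbols.

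DUSP1, DUSP2, DUSP4 and DUSP5 form the group of inducible phosphatases of the nucleus. DUSP5 binds ERK, dephosphorylates it and retains it in the nucleus. Its signal intensity was 282 in HDLM-2 cells, 16.0 in L-428 cells and 317 in L-540 cells. L-428 thus stood apart from both other lines, which were close to each other. The signal in L-428 was 19.9-fold lower than in L-540, a log2 difference of -4.31, and the log2 difference of HDLM-2 minus L-428 was 4.14, which is 17.6-fold. HDLM-2 and L-540 differed by 1.13-fold, with a log2 difference of -0.17 for HDLM-2 minus L-540. The cluster of DUSP5P1, annotated as a separate gene and by its name a pseudogene of DUSP5, is named after its values were seen. It had 6.75 in HDLM-2, compared with 13.3 in L-428 and 15.4 in L-540. Its lowest value was in HDLM-2, where DUSP5 was high, and its highest in L-540, where DUSP5 was highest. A relation to the DUSP5 signal was not tested.

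DUSP1, which acts on p38, JNK and ERK and is induced by stress and growth factors, had a signal of 61.8 in HDLM-2 cells, 58.9 in L-428 cells and 52.3 in L-540 cells. The 3 values lay within 1.18-fold of each other. The log2 difference of L-428 minus L-540 was 0.17 as deposited but -0.14 after shifting the arrays to one median, so these values give no order. For HDLM-2 minus L-428 it was 0.07 as deposited and 0.85 after quantile normalization, so the closeness of the values holds for the deposited scale. DUSP1 is a textbook target of the cyclic AMP response element (CRE), and its promoter is shown as an example of a member whose deposited signals were close to each other. The window runs from 250 bases before to 50 after the annotated start in RefSeq (GRCh38.p14, chr5:172771146-172771445, minus strand), and capitals mark a CRE, an E-box and a TATA box.
DUSP1: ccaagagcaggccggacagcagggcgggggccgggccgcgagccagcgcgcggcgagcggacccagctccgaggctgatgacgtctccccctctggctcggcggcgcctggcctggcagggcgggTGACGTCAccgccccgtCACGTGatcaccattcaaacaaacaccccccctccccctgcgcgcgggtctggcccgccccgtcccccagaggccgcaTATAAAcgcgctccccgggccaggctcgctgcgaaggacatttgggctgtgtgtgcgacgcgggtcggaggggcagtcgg

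In this window the CRE lies at positions -125 to -118 from the start, the E-box at -108 to -103 and the TATA box at -30 to -25. Of 35116 windows of the same length over all genes, 1.85% held a CRE (TGACGTCA), 7.26% an E-box (CACGTG) and 11.5% a TATA box (TATAAA). The motifs were searched on both strands, and a match is a description of the letters and not of a bound site.

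DUSP2, a phosphatase of activated lymphocytes and other blood cells, had 18.9 in all 3 lines. DUSP4, which acts on ERK and JNK, had 8.03 in HDLM-2, compared with 8.03 in L-428 and 6.89 in L-540. Such identical values are not read as equal expression. The value 18.9 of DUSP2 was shared exactly by 12 other clusters in HDLM-2, compared with 8 in L-428 and 12 in L-540. The value 8.03 of DUSP4 was shared by 276 other clusters in HDLM-2 and by 193 in L-428, so it marks a step that many clusters take and not a level particular to DUSP4.

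DUSP6, DUSP7 and DUSP9 are located in the cytoplasm and act mainly on ERK. DUSP6 is transcribed in response to ERK activity and is widely used as a readout of that branch. Its signal intensity was 3.60 in HDLM-2 cells, 92.7 in L-428 cells and 2.79 in L-540 cells. Only L-428 lay above its array median, and the signals of HDLM-2 and L-540 lay below theirs. The signal in L-428 was 33.3-fold above L-540 (log2 difference 5.06), and in HDLM-2 it was 25.8-fold below L-428 (log2 difference -4.69). No value for the 2 low lines was shared with another cluster. Between HDLM-2 and L-540 the difference was 0.37 on the log2 scale, at signals too low to be read as an order. With an offset of 50 added before the logarithm the differences of L-428 minus L-540 and HDLM-2 minus L-428 were 1.44 and -1.41, under 4-fold. After quantile normalization of the 3 arrays the difference of L-428 minus L-540 was 4.56 and that of HDLM-2 minus L-428 was -4.17.

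The promoter window of DUSP6 (GRCh38.p14, chr12:89352452-89352751, minus strand) is shown because its deposited signals had the widest range among the members, which rests on 2 signals below the array medians. With the offset of 50 and after quantile normalization DUSP5 had the wider range. It is printed in lower case throughout, since none of the 7 motifs searched was found in it.
DUSP6: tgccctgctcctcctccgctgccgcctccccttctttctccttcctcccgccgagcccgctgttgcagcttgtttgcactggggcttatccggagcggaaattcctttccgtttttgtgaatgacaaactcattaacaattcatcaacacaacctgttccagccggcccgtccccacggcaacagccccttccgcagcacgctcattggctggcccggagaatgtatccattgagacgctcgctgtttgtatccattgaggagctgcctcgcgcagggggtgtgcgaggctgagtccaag

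Besides the CRE, E-box and TATA box, the motifs were AP-1 (TGANTCA, in 7.71% of all windows), an ETS site (CCGGAAGT, 4.14%), the CArG box of SRF (1.29%) and the NF-kappaB site (11.3%). The absence of these letters concerns this window only. The DUSP6 window had a GC content of 58.3%, close to the median of 58.7% over all windows.

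DUSP7 had 22.3 in HDLM-2, compared with 70.3 in L-428 and 70.3 in L-540. HDLM-2 was 3.16-fold lower than both other lines, with a log2 difference of -1.66 in each case. The value in L-428 and L-540 was identical but was shared with no other cluster of either array. After quantile normalization HDLM-2 differed by -1.57 from L-540 and by -0.95 from L-428, while L-428 minus L-540, 0 as deposited, was -0.62. With an offset of 50 the difference of HDLM-2 from each other line was -0.74. The low signal in HDLM-2 kept its direction under these settings, and its size depended on them. The promoter window of DUSP7 (GRCh38.p14, chr3:52056522-52056821, minus strand) is shown as that of the second cytoplasmic member that differed, with a match to the NF-kappaB consensus on the opposite strand in capitals, at positions -158 to -149.
DUSP7: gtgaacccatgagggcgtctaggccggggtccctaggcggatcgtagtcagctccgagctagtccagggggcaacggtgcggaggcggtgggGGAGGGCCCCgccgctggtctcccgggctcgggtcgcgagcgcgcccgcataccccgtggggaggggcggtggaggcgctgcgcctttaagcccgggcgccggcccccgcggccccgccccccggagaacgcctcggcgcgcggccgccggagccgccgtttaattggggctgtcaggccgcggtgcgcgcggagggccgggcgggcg

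DUSP9, which in the mouse is required for the placenta, had 13.1 in HDLM-2 cells, 11.7 in L-428 cells and 10.6 in L-540 cells, a range of 1.24-fold. Its value in L-540 was shared by 118 other clusters of that array. No order is read from these values, since the difference of L-428 minus L-540 was 0.15 as deposited and -0.16 with the arrays shifted to one median.

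DUSP8, DUSP10 and DUSP16 act mainly on JNK and p38. DUSP8 had 17.3 in HDLM-2, compared with 8.36 in L-428 and 8.55 in L-540. HDLM-2 was 2.07-fold above L-428 and 2.02-fold above L-540, with log2 differences of 1.05 and 1.01, and L-428 and L-540 were almost equal. All 3 signals were below 20, and with an offset of 50 added before the logarithm the 2 differences were 0.21 and 0.20. The promoter window of DUSP8 (GRCh38.p14, chr11:1572222-1572521, minus strand) is shown because it holds 2 CRE, in capitals, at -118 to -111 and at -74 to -67.
DUSP8: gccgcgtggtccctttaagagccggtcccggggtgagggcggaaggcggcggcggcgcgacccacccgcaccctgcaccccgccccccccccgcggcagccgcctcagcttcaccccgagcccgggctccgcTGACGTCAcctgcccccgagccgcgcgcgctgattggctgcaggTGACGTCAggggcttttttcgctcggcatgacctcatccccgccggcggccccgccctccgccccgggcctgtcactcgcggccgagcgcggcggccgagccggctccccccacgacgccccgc

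DUSP10 had 12.8 in each line, a value shared by 7 other clusters in HDLM-2, compared with 11 in L-428 and 10 in L-540. DUSP16 had 13.5 in HDLM-2 cells, 9.89 in L-428 cells and 13.5 in L-540 cells, so that L-428 was 1.36-fold below both other lines. After quantile normalization L-428 differed by -0.73 from L-540, and HDLM-2 by 0.85 from L-428. The identical value of HDLM-2 and L-540 was shared with no other cluster. Of the 10 members, 2 had the same value in all 3 lines and 3 the same value in 2 lines. Over all clusters, 31.5% had the same value in all 3 lines.

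RefSeq windows were found for 8 of the 10 members, the exceptions being DUSP4 and DUSP5. There were 10 windows in all, because DUSP9 and DUSP10 have 2 each, and the counts of motifs cover these 8 members only. A CRE was present in 2 members, DUSP1 and DUSP8, beside 1.85% of all windows. An E-box was present in 2, DUSP1 and DUSP2, beside 7.26%. A match to the NF-kappaB consensus was present in 2, in DUSP7 and in 1 window of DUSP9, beside 11.3%. No window held AP-1 (7.71% of all windows), the ETS site (4.14%) or the CArG box (1.29%). Nothing is read about the family from these small counts. No match overlapped another. The GC content of the 10 windows ran from 55.0% (DUSP10) to 78.3% (DUSP8), and 7 of the 10 exceeded the median of all windows.

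The differences between lines were next set against those of all clusters, with a difference counted at 4-fold or more and the higher signal above 100. For L-428 minus L-540, 0 of 10 members were higher, beside 2.04% of all clusters, and 1 was lower, DUSP5, beside 0.472%. For HDLM-2 minus L-540, 0 members were higher and 0 lower, beside 0.273% and 0.586% of all clusters. For HDLM-2 minus L-428, 1 member was higher, again DUSP5, beside 0.427% of all clusters, and 0 were lower, beside 2.93%. These comparisons share arrays, and the counts for DUSP5 in the first and the third rest on the same L-428 signal. Without the bound of 100, DUSP6 was also counted, as the 1 member higher in L-428 than in L-540, beside 6.45% of all clusters, and as the 1 member lower in HDLM-2 than in L-428, beside 8.49%. DUSP5 remained the 1 member in the other direction, beside 1.04% lower for L-428 minus L-540 and 1.18% higher for HDLM-2 minus L-428. As the members were chosen with their signals known, nothing is read from these counts about the family.

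**Figure D2:**
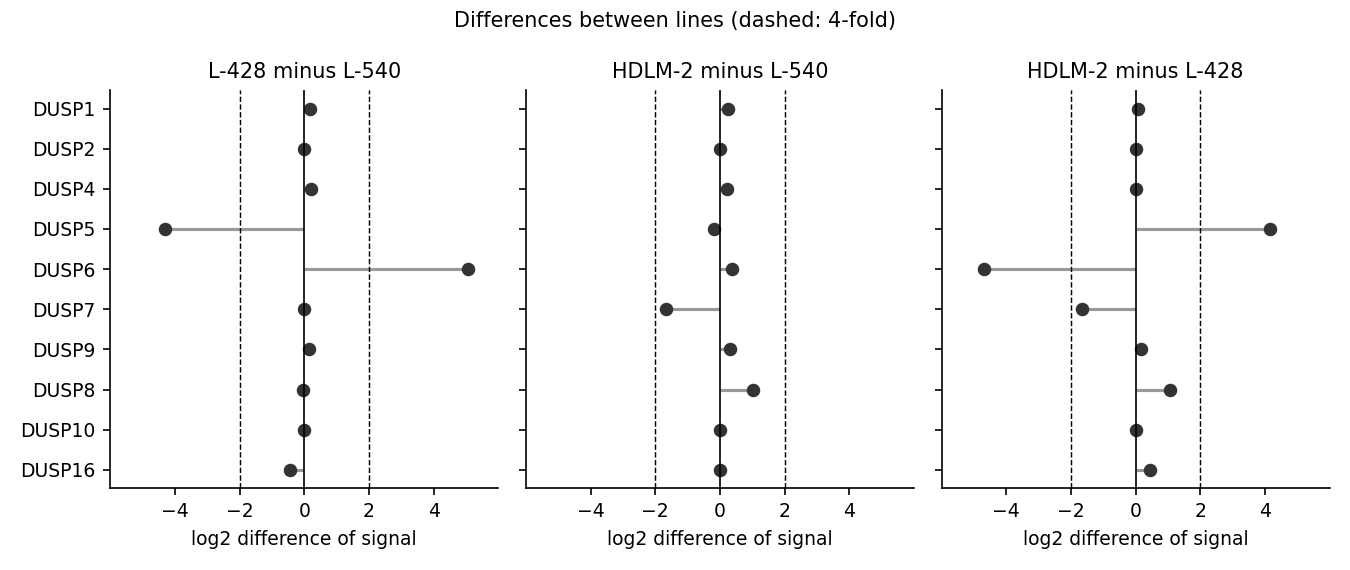
Difference of log2 signal for each DUSP gene in the 3 pairs of lines, 1 array per line, with dashed lines at 4-fold. DUSP5 (-4.31 and 4.14) and DUSP6 (5.06 and -4.69) point in opposite directions in the 2 pairs that hold L-428, and no member passes 4-fold for HDLM-2 minus L-540, where DUSP7 is at -1.66 and DUSP8 at 1.01.

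The median log2 difference of the 10 members was 0 for L-428 minus L-540, with 4 higher, 3 lower and 3 tied. HDLM-2 had 5 members higher, 2 lower and 3 tied against each other line, with a median of 0.11 over L-540 and of 0.035 over L-428. Over all 14232 genes, 2969 were higher in HDLM-2 than in L-540, 3697 lower and 7566 tied. Set against L-428, HDLM-2 had 2960 genes higher, 4858 lower and 6414 tied. In L-428, 4553 genes were higher than in L-540, 2795 lower and 6884 tied. The balance of all genes in HDLM-2 thus leaned to lower signals, unlike that of the members. The members were chosen with their signals known, so nothing is read from this contrast. Among the 2465 clusters above 100 in L-428 or L-540, 18 had a lower difference than DUSP5. Among the 2436 clusters above 100 in HDLM-2 or L-428, 26 had a higher difference than DUSP5. DUSP6 was not one of these clusters and was given no rank, as its difference rests on signals below the array medians. The sign of the DUSP6 difference was that of the general shift of L-428 among genes above 100, and the sign of the DUSP5 difference was the opposite one. After quantile normalization DUSP5 differed by -4.70 in L-428 relative to L-540 and by 4.71 in HDLM-2 relative to L-428, larger than as deposited.

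**Figure D3:**
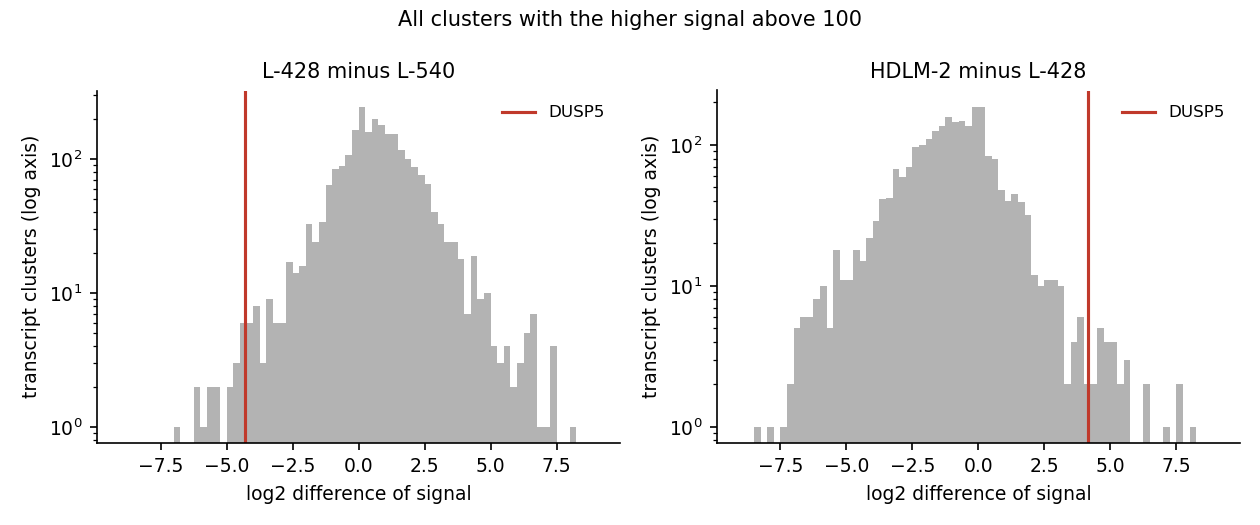
Number of transcript clusters (log axis) by difference of log2 signal for L-428 minus L-540 and HDLM-2 minus L-428, over the 2465 and 2436 clusters with the higher signal above 100, in bins. The vertical line marks DUSP5, which lies in the lower tail of the first pair (-4.31) and in the upper tail of the second (4.14).

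The genes with the profile most like that of DUSP5 were sought among the other 1127 genes above 100 in at least 1 line, by the distance between log2 profiles centered on their own mean. The nearest was CD53, a tetraspanin of leukocytes, with 239 in HDLM-2, compared with 15.9 in L-428 and 229 in L-540, at a distance of 0.33. PRF1, which encodes perforin of cytotoxic cells, had 113 in HDLM-2 cells, 8.34 in L-428 cells and 103 in L-540 cells, at a distance of 0.49. MBP had 81.1 in HDLM-2, compared with 8.98 in L-428 and 146 in L-540, at 0.70. The likeness rests on 3 arrays only.

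Other genes of the pathway were taken from lists. MAPK3, which encodes the kinase ERK1, had 231 in HDLM-2 cells, 258 in L-428 cells and 231 in L-540 cells, and was the 1 of 11 measured MAP kinases above 100 in any line. None of the 11 differed 4-fold with a signal above 100. Upstream, 13 genes of the RAS and RAF group had a cluster of their own, and 2 of them exceeded 100. RASGRP1, an activator of RAS in lymphocytes, had 134 in HDLM-2, compared with 106 in L-428 and 15.9 in L-540, and was the 1 gene of the group counted as different, 6.71-fold higher in L-428 and 8.46-fold higher in HDLM-2 than in L-540. RRAS, a relative of RAS, had 90.4 in HDLM-2 cells, 93.7 in L-428 cells and 146 in L-540 cells. None of the 13 MAP kinase kinase kinases and none of the 3 MAP kinase kinases with a cluster of their own exceeded 100. Of the kinase kinase kinases MAP3K8, a kinase that activates the ERK branch downstream of NF-kappaB signaling, had the highest mean, with 24.8 in HDLM-2, compared with 65.9 in L-428 and 18.7 in L-540, and of the MAP kinase kinases MAP2K3, which activates p38, had 12.3 in HDLM-2 cells, 12.4 in L-428 cells and 12.3 in L-540 cells. The median log2 difference of each of these 4 lists was 0 in each pair of lines, as it was over all 14232 genes.

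Among genes known to be induced through ERK, 14 of 16 had a cluster of their own and 7 of them had the same value in all 3 lines. IER3, an immediate early gene, had 562 in HDLM-2, compared with 65.1 in L-428 and 70.9 in L-540, 8.64-fold and 7.93-fold higher in HDLM-2 than in L-428 and L-540. MYC, which drives growth and proliferation, had 212 in HDLM-2 cells, 39.9 in L-428 cells and 172 in L-540 cells. MYC was lowest in L-428, as DUSP5 was, whereas IER3 was also low in L-540, where DUSP5 was high. A relation of these genes to DUSP5 was not tested. The median difference of the list was 0 in each pair. Of the 9 kinases activated by MAP kinases, MKNK2, which phosphorylates a translation initiation factor, had 102 in HDLM-2, compared with 53.7 in L-428 and 63.7 in L-540, and none of the 9 differed 4-fold with a signal above 100.

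Sprouty and Spred proteins inhibit the RAS and ERK pathway and, like DUSP6, are feedback regulators. Of 7 such genes 5 had a cluster of their own, and none exceeded 100 in any line. SPRED2 had the highest mean, with 26.8 in HDLM-2 cells, 40.2 in L-428 cells and 11.9 in L-540 cells. Without the bound of 100, 2 of the 5 were 4-fold higher in L-428 than in L-540 and 4-fold lower in HDLM-2 than in L-428, and these, named after their values were seen, were SPRY2 and SPRED1. The same rule counted 604 and 809 of all 14232 genes, and 6.45% and 8.49% of all clusters. SPRY2 had 1.72 in HDLM-2, compared with 16.3 in L-428 and 2.33 in L-540. SPRED1 had 3.42 in HDLM-2 cells, 24.7 in L-428 cells and 2.52 in L-540 cells. L-428 was the highest line for both, as for DUSP6, but all of these signals were low. The value of SPRY2 in L-540 was also held by other listed genes and is not a level particular to it. Of the 14 measured genes induced through ERK, 1 was higher in L-428 than in L-540, 5 were lower and 8 tied. For HDLM-2 minus L-428, 6 of them were higher, 1 lower and 7 tied. The counts over all genes given above leaned the other way in both pairs, and this contrast was not tested. The median difference of the 5 genes was 1.75 in L-428 and 0.39 in HDLM-2 relative to L-540, beside 0 over all genes. With an offset of 50 the value for L-428 was 0.34, and for HDLM-2 minus L-428 it was -0.59 as deposited and 0.10 after quantile normalization.

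**Figure D4:**
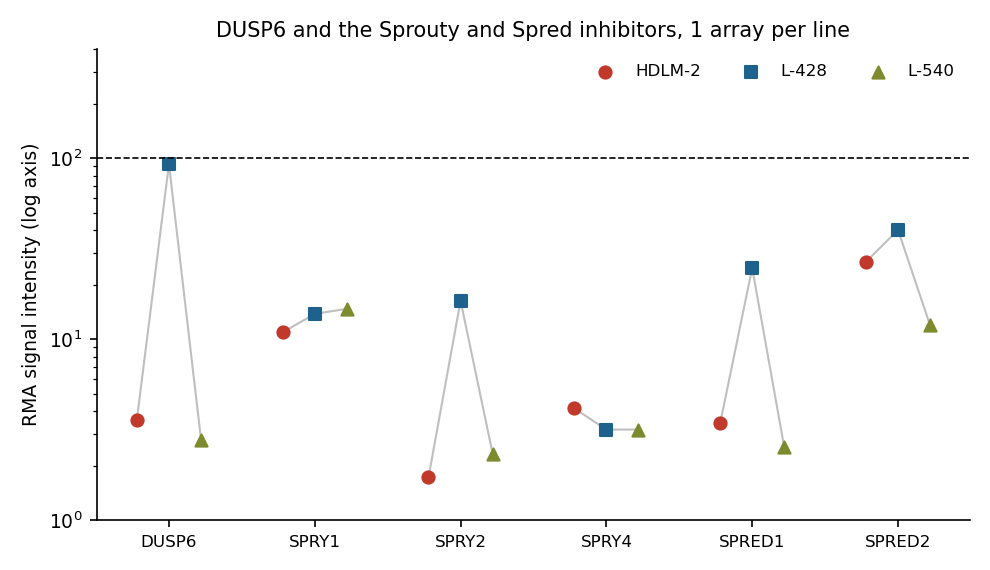
RMA signal intensity (log axis) of DUSP6 and the 5 measured Sprouty and Spred genes in HDLM-2 (circles), L-428 (squares) and L-540 (triangles), 1 array each, with gray lines joining the values of a gene and a dashed line at 100. DUSP6 (92.7), SPRY2 (16.3) and SPRED1 (24.7) have their highest signal in L-428 and lie at or below 3.60 in the other lines, whereas SPRY1 and SPRY4 do not have their highest signal in L-428.

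Among other phosphatases, none of the 10 atypical DUSP genes with a cluster of their own, which lack the MAP kinase binding domain, exceeded 100 in HDLM-2 or L-540. DUSP11, an RNA phosphatase, had 37.8 in HDLM-2, compared with 232 in L-428 and 50.7 in L-540, 4.57-fold higher in L-428 than in L-540 and 6.13-fold lower in HDLM-2 than in L-428. The median difference of this list was 0 in L-428 and -0.04 in HDLM-2 relative to L-540, and -0.014 in HDLM-2 relative to L-428. PPM1B, a serine and threonine phosphatase, had 22.4 in HDLM-2 cells, 112 in L-428 cells and 34.3 in L-540 cells, 5.02-fold lower in HDLM-2 than in L-428. It was the 1 of 6 measured genes of other MAP kinase phosphatases above 100 in any line, and the median difference of these 6 was 0.015 in L-428 and -0.21 in HDLM-2 relative to L-540, and -0.23 in HDLM-2 relative to L-428.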

How the data were processed

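RNA of the 3 HL lines was measured on 1 Human Exon 1.0 ST array each. The deposited table holds signal intensities of transcript clusters on the linear scale, which the authors computed with the robust multi-array algorithm RMA in Affymetrix Expression Console, with the genome build hg18 named in the submitters' processing notes. Many values are exact duplicates within an array, and ties were not read as equal expression. Current symbols were looked up by Entrez identifier in RefSeq (GRCh38.p14), where 14404 of the 14432 clusters paired with a single gene were found. For genes with several clusters the one with the highest mean was used, and clusters of several genes entered no list.

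Signals were used as deposited. Differences are log2 ratios with no offset, counted at 4-fold with the higher signal above 100. With 1 array per line no test was made and no p-value computed. Alternatives were thresholds of 50 and 200, folds of 2 and 8, no filter on the signal, an offset of 50, arrays shifted to one median and quantile normalization. The members, the gene lists and the rules were chosen with earlier results of these data known. Genes named are all members, list genes above 100 in at least 1 line with a 4-fold range, the gene with the highest mean of each pathway list, and the genes nearest to a member above 100 with a 4-fold range. TNFRSF8, DUSP5P1, SPRY2, SPRED1 and the genes of the closing observations fall outside this rule and were named after their values were seen. Of the B cell, T cell, myeloid and red cell and platelet markers only the highest signal of each list is given. Promoter windows came from RefSeq, and protein sequences were not analysed here. The counting of differences was run on noise-free copies of the L-540 signals with known changes. This checks the computation only, and not the effect of noise, ties or low signals. Computations used Python 3.11.15 with pandas 2.3.3 and numpy 2.4.6, and plots matplotlib 3.10.9.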

Additional observations from a re-analysis of the deposited data

How the results depend on the processing

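Of 60 recomputed counts of members, 53 stayed at the value as reported or within 1.5 times of it, and 7 moved. With a threshold of 50, 2 members were above it in HDLM-2, compared with 3 in L-428 and 3 in L-540. With the threshold of 50 or with no filter on the signal, 1 member (DUSP6) was 4-fold higher for L-428 minus L-540 and 1 lower for HDLM-2 minus L-428. The share of all clusters past a bound of 50 was not computed, so nothing is read about the members from the counts at 50. A threshold of 200, folds of 2 and 8, an offset of 50, one median and quantile normalization changed no count. Every reported count was 0 or 1, and each 1 was DUSP5. Such counts could hardly move under these settings, so nothing is concluded from their stability. Keeping clusters with 1 gene only could change none, as all 10 members have such clusters. The offset moved the DUSP6 differences to 1.44 and -1.41, under 4-fold, and those of DUSP5 to -2.48 and 2.33, since it shrinks low signals. Of 21 differences that were not 0, all 21 kept their sign with the offset, 18 with one median and 17 with quantile normalization. The exceptions were L-428 minus L-540 for DUSP1, DUSP4 and DUSP9 (0.17, 0.22 and 0.15 as deposited, -0.14, -0.09 and -0.16 with one median, -0.44, -0.05 and -0.17 with quantile normalization) and, with quantile normalization, HDLM-2 minus L-540 for DUSP5 (-0.17 against 0.01). No paired analysis was possible because there was 1 array for each line, and leaving out an array removes its comparisons. Low signals limit what can be read, as 6 of 10 members stayed below 20 in every line.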

Other observations

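Outside the rule for naming, and named after their values were seen, 3 genes of the pathway lists other than Sprouty and Spred had no signal above 100 and were at least 4-fold higher in L-428 than in each other line. Over all clusters, with no filter on the signal, 6.45% were 4-fold higher in L-428 than in L-540, and 8.49% were 4-fold lower in HDLM-2 than in L-428. These shares are for each pair alone. The share in both pairs with no signal above 100 was not computed, so nothing is read from the count of genes. MAP3K5, a stress-responsive kinase upstream of JNK and p38, had 6.82 in HDLM-2, compared with 64.9 in L-428 and 6.82 in L-540. MAPK6, an atypical MAP kinase also known as ERK3, had 15.4 in HDLM-2 cells, 69.9 in L-428 cells and 15.4 in L-540 cells. KSR2, a scaffold of the RAF and ERK cascade, had 8.03 in HDLM-2, compared with 32.4 in L-428 and 7.12 in L-540. In HDLM-2 the value of KSR2 was the one that DUSP4 and many other clusters had. The low value of MAP3K5 was also that of MAP3K9, and the low value of MAPK6 was also that of MAPK15. Such shared values are not levels particular to these genes, so the sizes of their differences are not read. Some clusters that a listed gene shares with other genes also had a 4-fold range and a signal above 100. Their signals follow in the order HDLM-2, L-428, L-540. The cluster of SOS1, an activator of RAS, and NKAP had 26.7, 134 and 24.5. That of MAP3K15 and SH3KBP1 had 24.8, 232 and 12.8, and that of PPP2CA and CDKL3 had 79.0, 317 and 126. By contrast, the cluster of MCL1, ADAMTSL4 and ADAMTSL4-AS1 was highest in L-540, with 50.1, 145 and 213. None of these signals can be assigned to a single gene.

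With a bound of 50 in place of 100, chosen after the signal of DUSP6 was seen, the genes with the profile most like DUSP6 among 2313 genes included 2 chemokine genes. CXCL10 had 3.01 in HDLM-2, compared with 71.4 in L-428 and 2.39 in L-540, at a distance of 0.12 between centered log2 profiles. CCL1 had 11.1 in HDLM-2 cells, 263 in L-428 cells and 9.29 in L-540 cells, at 0.16. NETO2 had 3.77 in HDLM-2, compared with 93.9 in L-428 and 3.39 in L-540, at 0.20. The likeness rests on 3 arrays, and for DUSP6, CXCL10 and NETO2 on signals in HDLM-2 and L-540 that were below the array medians.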
